A study of Apera spica-venti with 32 samples.

Results

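Transcripts of sugar, starch and glycolysis enzymes were followed in leaves of silky windgrass (Apera spica-venti), a grass weed, with and without the herbicide pinoxaden. Features are reading frames on assembled transcript contigs, named by the contig identifier and by the description that the authors gave. The set holds every feature whose description names starch, sucrose, trehalose, amylase, invertase, hexokinase, fructokinase, fructose-bisphosphate, glyceraldehyde-3-phosphate, phosphoglycerate, phosphofructokinase, pyruvate kinase, pyruvate dehydrogenase or glucose-6-phosphate. Transporters and translocators were left out. This gave 49 of the 7967 described features, out of 39590 features in the count table. All 49 passed the filter on low counts, as did 25036 features in all. The 49 lie on 45 contigs, and 4 contigs carry 2 of them each, so such pairs are not independent genes.

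A leaf makes sucrose in the cytosol for export and stores part of its carbon as starch in the plastid, from which it releases sugar at night. Glycolysis splits hexose phosphates into pyruvate, with a set of enzymes in the cytosol and a partly parallel set in the plastid. The pyruvate dehydrogenase complexes of mitochondria and plastids then turn pyruvate into acetyl-CoA. In the plastid of a grass, acetyl-CoA carboxylase uses that acetyl-CoA in the first step of fatty acid synthesis, and this carboxylase is the enzyme that pinoxaden inhibits.

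The study set populations resistant to multiple herbicides against susceptible ones. The 8 groups were R1 and R2 (resistant) sprayed with pinoxaden, S1 and S2 (susceptible) sprayed with it, R1 and R2 untreated, and S1 and S2 untreated. Each group had 4 libraries, and each library held leaves of 3 plants grown at 21 °C and taken at growth stage BBCH 12 to 13. Pinoxaden (Axial 50 EC) was given at 45 g per ha of active ingredient, and leaves were harvested 8 h after spraying. The harvest time of untreated plants and any mock spray are not given in the sources used here. Each class holds 2 populations, so errors and p-values describe the spread between libraries of these 4 populations and not that between resistant and susceptible populations at large.

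Library totals lay between 26213800 and 46062800 counts, and the 49 features took 0.135% to 0.178% of a library. The 10 most abundant features took 60.5% to 69.6%, and the lowest share was that of R1 untreated replicate 1, which also had the highest scaling factor among untreated libraries, 1.24. The leaf label was checked with 23 features of photosynthesis, all of which had counts. Their summed level was 5117 to 8085 CPM (the count relative to the scaled library total) in sprayed libraries and 5983 to 11569 CPM in untreated ones. In S1 it was 5117 to 6360 CPM when sprayed and 8454 to 11569 CPM when untreated, without overlap, while sprayed and untreated libraries overlapped in S2, R1 and R2. The median was lower in sprayed libraries of each population. It was 5532 CPM sprayed against 9782 CPM untreated in S1 and 6685 against 9885 CPM in S2. In R1 it was 6707 against 7928 CPM, and in R2 6487 against 8350 CPM. The summed level of 24 tested features of dividing cells (26 in all) overlapped in S1. It lay lower without overlap in sprayed libraries of S2 (115 to 124 CPM, against 131 to 160 CPM untreated), R1 (123 to 141 CPM, against 146 to 196 CPM) and R2 (114 to 125 CPM, against 142 to 156 CPM). Both lists hold only features that the authors had listed as changed in these libraries. A shift of their sums with spraying may follow from that choice, so it supports nothing. The part of either list in the results was not tested. In a bulk leaf sample, fewer cells of a type and less RNA per cell cannot be told apart.

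Descriptions exist for a feature where the authors called it changed in at least 1 of 4 comparisons: resistant against susceptible, sprayed or untreated, and the spray response of either class. Those comparisons therefore chose the members. They are given here as fold changes and counts that describe the members and support nothing. The authors' deposited table lists 39 members in 1 comparison and 10 in 2. Nearest to the authors' limit of 0.05 were D-3-phosphoglycerate dehydrogenase 3, with an adjusted p of 0.0464 in the authors' deposited table, and soluble starch synthase 3, with 0.0456 in the authors' deposited table. Features beyond the limit carry no description and were not analysed here as members.

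In resistant plants few members responded to spraying. A member was called when its adjusted p was under 0.05 in edgeR's quasi-likelihood test over all 25036 features. Of the 49 members 6 were called, all of them lower in sprayed plants. Among all tested features 9.14% were called in this comparison, 5.63% higher and 3.51% lower. Among the other described features, the pool the members were drawn from, 29.2% were called, 18.2% higher and 11.1% lower. The median log2 fold change of the members was -0.04, against -0.01 over all features tested. Scaling by library totals alone gave 7 calls, 2 of them higher, and DESeq2 gave 8, 1 of them higher.

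In susceptible plants most members responded, in both directions, as did most of the other described features. Of the 49 members 36 were called, 16 higher and 20 lower in sprayed plants. Among all tested features 25.4% were called, 13.5% higher and 11.8% lower. Among the other described features 79.2% were called, 42.6% higher and 36.6% lower, against 73.5% of the members. The median log2 fold change of the members was -0.12, against -0.01 over all features and 0.21 over the other described ones. The members ranged from -1.01 to 1.35.

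Falls in susceptible plants are relative to the other transcripts of a library. When libraries were scaled by their totals alone, without the factors that balance the most abundant features, the median of all features shifted to 0.30. Then 23 members were called, 20 higher and 3 lower, and the 3 were sucrose-phosphatase, alpha-amylase 3 and NADP-dependent glyceraldehyde-3-phosphate dehydrogenase. Of the 36 members called before, 3 turned above 0: a neutral/alkaline invertase at 0.11, trehalose-phosphate synthase 7 at 0.06 and the plastid pyruvate dehydrogenase subunit E1 alpha-3 at 0.04.

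The difference of the responses, resistant minus susceptible, was called for 1 member, beside 0.563% of all features and 1.83% of the other described ones. For the other 48 members a call in one class and not in the other is not shown to differ.

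**Figure D1:**
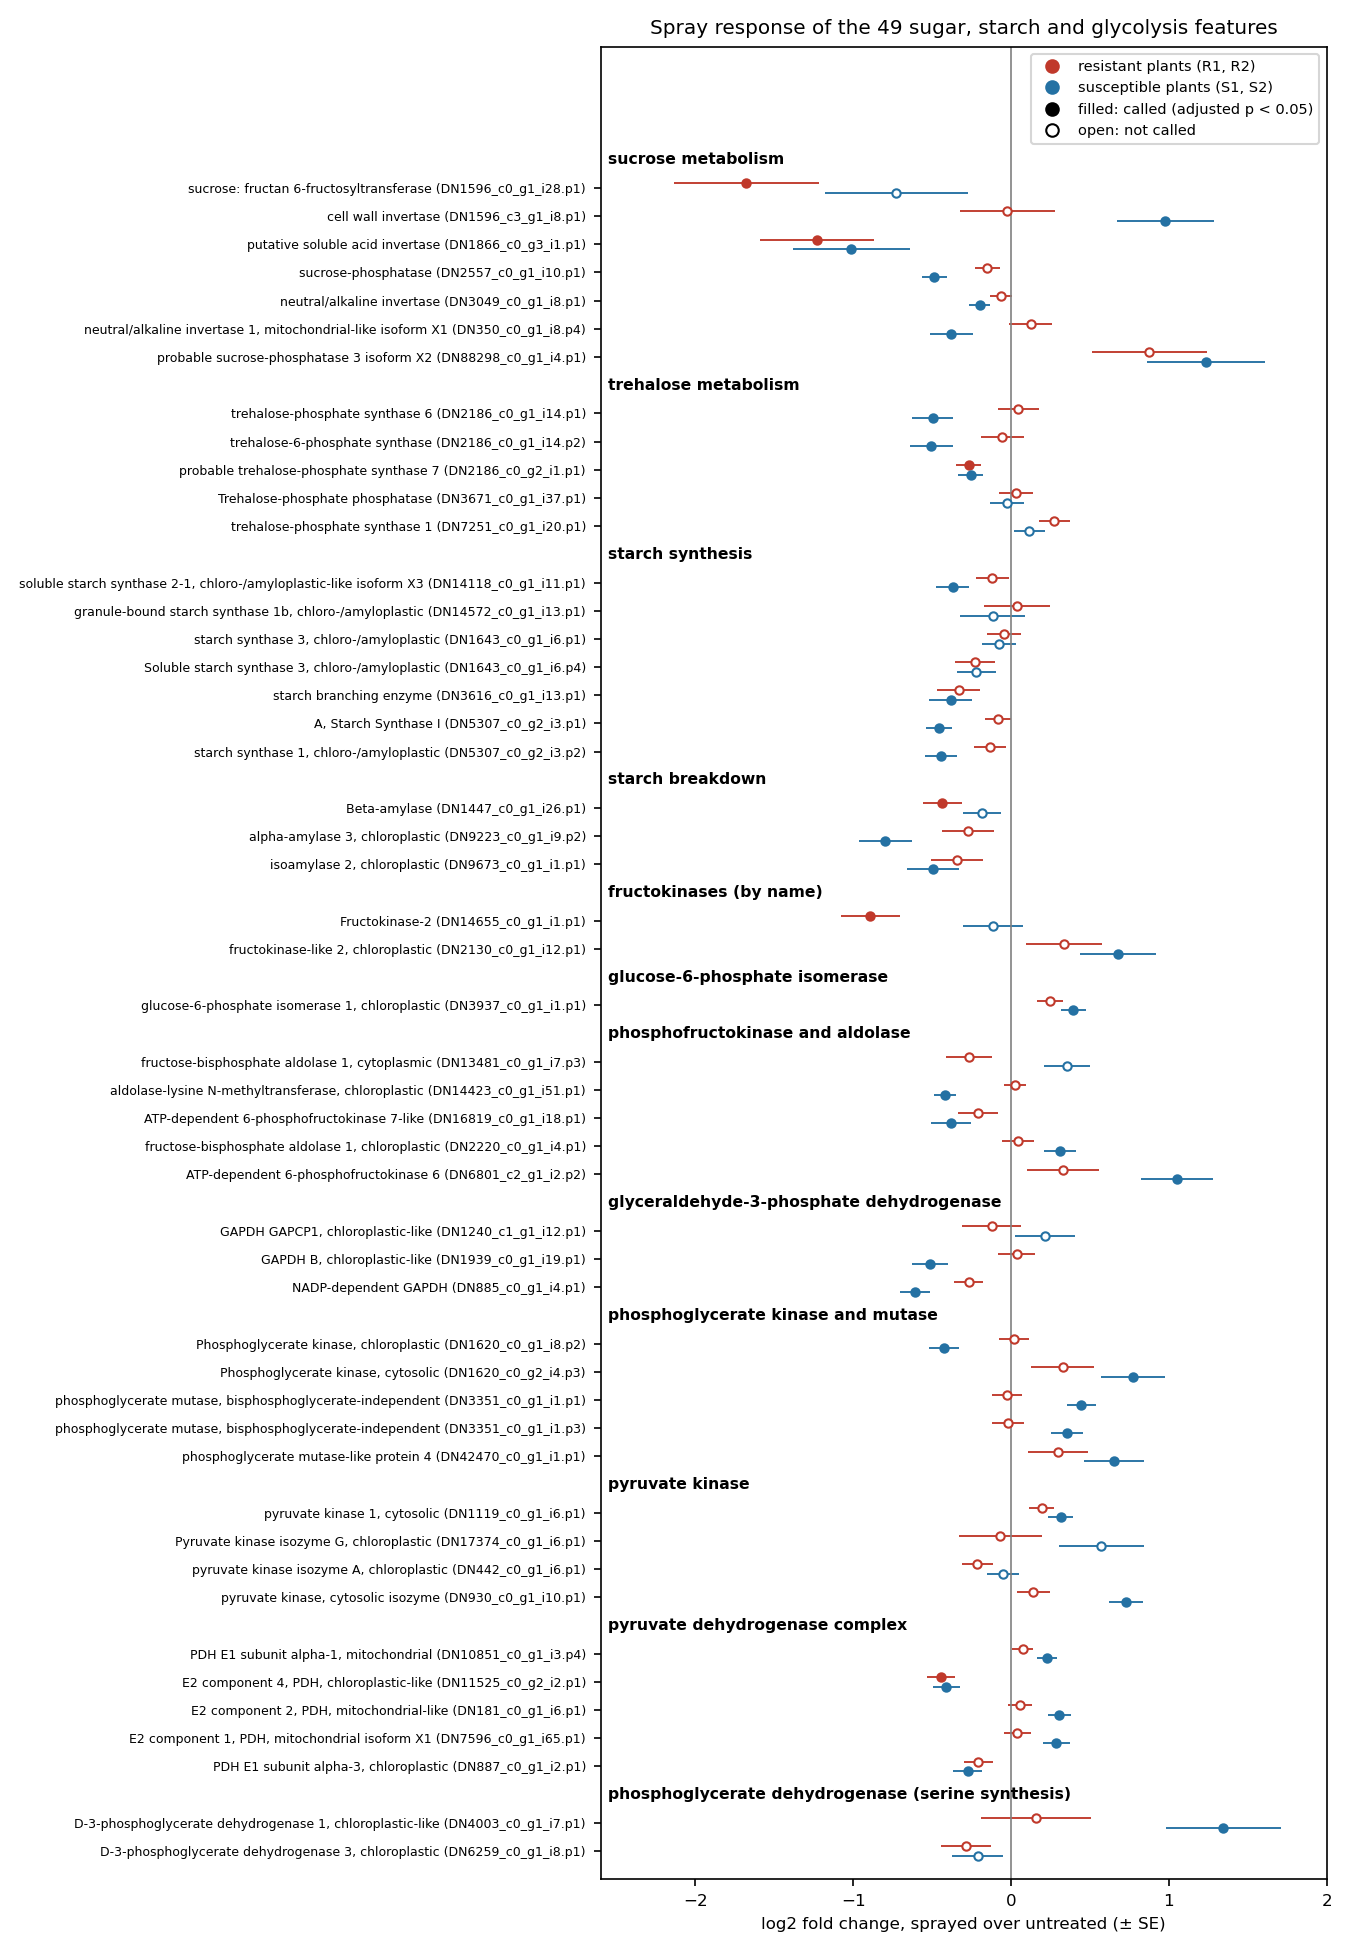
Log2 fold change of sprayed over untreated plants (x axis, ± SE of the fit) for each of the 49 features, grouped by role, in resistant plants (red) and susceptible plants (blue); filled points were called. Of the filled points 6 are red, all below 0, and 36 are blue, 16 above and 20 below 0.

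Sucrose enzymes moved in both directions, and both of the largest falls of resistant plants were among them. Of the 7 members, 2 fell in resistant plants, and 2 rose and 4 fell in susceptible plants. Sucrose-phosphatase (TRINITY_DN2557_c0_g1_i10.p1), which catalyses the last step of sucrose synthesis, had 52.7, 43.5, 56.4 and 47.6 CPM in sprayed S1 and 64.04, 59.2, 64.2 and 65.5 CPM in sprayed S2 libraries, against 74.2, 67.5, 65.9 and 78.97 CPM in untreated S1 and 80.1, 90.2, 90.4 and 86.2 CPM in untreated S2 libraries. All 8 sprayed susceptible libraries lay below all 8 untreated ones. The log2 fold change was -0.15 ± 0.08 in resistant plants (not called) and -0.49 ± 0.08 in susceptible plants (called).

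A putative soluble acid invertase (TRINITY_DN1866_c0_g3_i1.p1), an enzyme of the kind that splits sucrose in the vacuole, had 1.22, 1.56, 1.14 and 0.184 CPM in sprayed R1 and 0.680, 1.33, 0.461 and 0.992 CPM in sprayed R2 libraries, against 1.65, 2.08, 1.97 and 1.85 CPM in untreated R1 and 3.45, 2.10, 2.48 and 2.30 CPM in untreated R2 libraries. All sprayed resistant libraries lay below all untreated ones, though every level was low. Its log2 fold change was -1.23 ± 0.36 in resistant plants and -1.01 ± 0.37 in susceptible plants (both called). The call in resistant plants ended without R2 sprayed replicate 1, R2 sprayed replicate 3 or R2 untreated replicate 1, and that in susceptible plants without any 1 of 8 libraries, under totals alone, with no filter on low counts and with population as a random block, a fit that lets libraries of 1 population share a correlation.

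Sucrose:fructan 6-fructosyltransferase (TRINITY_DN1596_c0_g1_i28.p1), which builds fructans, the soluble storage sugars of cool-season grasses, had 1.31, 1.15, 1.03 and 9.38 CPM in sprayed R1 and 2.59, 2.61, 4.07 and 5.53 CPM in sprayed R2 libraries, against 27.3, 2.96, 12.6 and 10.7 CPM in untreated R1 and 7.27, 7.81, 17.4 and 4.18 CPM in untreated R2 libraries. The groups overlapped, since R1 sprayed replicate 4 was above 4 of the 8 untreated libraries. The fitted change was -1.68 ± 0.46 in resistant plants (called) and -0.73 ± 0.45 in susceptible plants (not called), and the call ended without R1 untreated replicate 1 or R2 untreated replicate 3, the libraries with the highest levels.

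Cell wall invertase (TRINITY_DN1596_c3_g1_i8.p1), which splits sucrose outside the cell, had a log2 fold change of -0.02 ± 0.30 in resistant plants (not called) and 0.98 ± 0.31 in susceptible plants (called), a call that ended without S2 sprayed replicate 4. Probable sucrose-phosphatase 3 (TRINITY_DN88298_c0_g1_i4.p1) had 0.88 ± 0.36 in resistant plants (not called) and 1.24 ± 0.37 in susceptible plants (called), but no library exceeded 0.565 CPM. Neutral/alkaline invertases split sucrose inside the cell. One (TRINITY_DN3049_c0_g1_i8.p1) had -0.06 ± 0.07 in resistant plants (not called) and -0.20 ± 0.07 in susceptible plants (called), and another, described as mitochondrial-like (TRINITY_DN350_c0_g1_i8.p4), had 0.13 ± 0.14 in resistant plants (not called) and -0.38 ± 0.14 in susceptible plants (called). Their calls were lost without any 1 of 7 and any 1 of 9 libraries.

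Trehalose 6-phosphate is made by trehalose-phosphate synthases and acts in plants as a signal of sucrose status. Of the 5 members of this pathway, 1 fell in resistant plants, and 3 fell and none rose in susceptible plants. The frames described as trehalose-phosphate synthase 6 (TRINITY_DN2186_c0_g1_i14.p1) and trehalose-6-phosphate synthase (TRINITY_DN2186_c0_g1_i14.p2) lie on 1 contig. The first had a log2 fold change of 0.05 ± 0.13 in resistant plants (not called) and -0.50 ± 0.13 in susceptible plants (called) and the second one of -0.05 ± 0.14 in resistant plants (not called) and -0.50 ± 0.14 in susceptible plants (called). Under totals alone they had -0.19 and -0.20 in susceptible plants, without a call.

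Probable trehalose-phosphate synthase 7 (TRINITY_DN2186_c0_g2_i1.p1), of a class that in Arabidopsis shows little synthase activity, had -0.27 ± 0.08 in resistant plants and -0.26 ± 0.08 in susceptible plants (both called). The call in resistant plants was lost without any 1 of 9 libraries, with no filter and with population as a random block. Trehalose-phosphate synthase 1 (TRINITY_DN7251_c0_g1_i20.p1), the active synthase of Arabidopsis, had 0.28 ± 0.10 in resistant plants and 0.12 ± 0.10 in susceptible plants (neither called), and 0.20 ± 0.07, a call, over all 4 populations together. That call was lost without any 1 of 12 libraries, and with no filter on low counts. Trehalose-phosphate phosphatase (TRINITY_DN3671_c0_g1_i37.p1), which removes the phosphate, had 0.03 ± 0.11 in resistant plants and -0.03 ± 0.11 in susceptible plants (neither called).

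Of the 7 starch synthesis members, 4 fell and none rose in susceptible plants, where all 7 changes were below 0. None was called in resistant plants, where their log2 fold changes ran from -0.33 to 0.04. Under totals alone those 4 ran from -0.14 to -0.06 without a call, and the other 3 were above 0. The frame described as Starch Synthase I (TRINITY_DN5307_c0_g2_i3.p1), which lengthens glucan chains, had 31.5, 34.8, 27.4 and 28.1 CPM in sprayed S1 and 38.4, 35.1, 35.5 and 34.95 CPM in sprayed S2 libraries, against 44.7, 45.9, 47.1 and 43.2 CPM in untreated S1 and 41.4, 50.9, 42.1 and 47.9 CPM in untreated S2 libraries. No sprayed susceptible library reached the lowest untreated one. The change was -0.08 ± 0.08 in resistant plants (not called) and -0.46 ± 0.08 in susceptible plants (called), and a second frame on that contig, starch synthase 1 (TRINITY_DN5307_c0_g2_i3.p2), had -0.13 ± 0.10 in resistant plants (not called) and -0.44 ± 0.10 in susceptible plants (called).

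Soluble starch synthase 2-1 (TRINITY_DN14118_c0_g1_i11.p1) had a log2 fold change of -0.12 ± 0.10 in resistant plants (not called) and -0.37 ± 0.10 in susceptible plants (called). Starch branching enzyme (TRINITY_DN3616_c0_g1_i13.p1), which adds the branch points, had -0.33 ± 0.14 in resistant plants (not called) and -0.38 ± 0.14 in susceptible plants (called), and its call was lost without any 1 of 9 libraries. The frames on the contig of starch synthase 3 had -0.04 ± 0.11 in resistant plants and -0.07 ± 0.11 in susceptible plants (neither called) for the first (TRINITY_DN1643_c0_g1_i6.p1) and -0.23 ± 0.13 in resistant plants and -0.22 ± 0.12 in susceptible plants (neither called) for the other (TRINITY_DN1643_c0_g1_i6.p4). Granule-bound starch synthase 1b (TRINITY_DN14572_c0_g1_i13.p1), of the family that makes amylose, had 0.04 ± 0.21 in resistant plants and -0.12 ± 0.20 in susceptible plants (neither called).

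Of the 3 members matched by the word amylase, 1 fell in resistant plants and the other 2 in susceptible plants. Alpha-amylase 3 (TRINITY_DN9223_c0_g1_i9.p2), a plastid enzyme that cuts starch, had 3.36, 3.33, 3.48 and 3.89 CPM in sprayed S1 and 5.95, 3.54, 4.32 and 3.82 CPM in sprayed S2 libraries, against 7.52, 4.64, 6.07 and 7.08 CPM in untreated S1 and 10.6, 3.58, 7.30 and 7.90 CPM in untreated S2 libraries. The S1 groups did not overlap and the S2 groups did. Its change was -0.27 ± 0.17 in resistant plants (not called) and -0.80 ± 0.17 in susceptible plants (called). Isoamylase 2 (TRINITY_DN9673_c0_g1_i1.p1), which in Arabidopsis works with isoamylase 1 in starch synthesis rather than breakdown, had -0.34 ± 0.16 in resistant plants (not called) and -0.49 ± 0.17 in susceptible plants (called). That call was lost without S1 sprayed replicate 1, S1 sprayed replicate 3, S2 sprayed replicate 1, S2 sprayed replicate 4 or S2 untreated replicate 1.

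Beta-amylase (TRINITY_DN1447_c0_g1_i26.p1), of the family that releases maltose from starch, had a log2 fold change of -0.43 ± 0.12 in resistant plants (called) and -0.18 ± 0.12 in susceptible plants (not called). The call ended without R1 sprayed replicate 3, R2 sprayed replicate 2 or R1 untreated replicate 3, and under totals alone.

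Fructokinases phosphorylate fructose. Fructokinase-2 (TRINITY_DN14655_c0_g1_i1.p1) had 0.972, 0.916, 0.590 and 0.685 CPM in sprayed R1 and 0.871, 0.556, 0.814 and 0.519 CPM in sprayed R2 libraries, against 1.33, 1.81, 1.46 and 1.47 CPM in untreated R1 and 1.25, 1.25, 1.14 and 1.34 CPM in untreated R2 libraries. Every sprayed resistant library lay below every untreated one. The change was -0.89 ± 0.19 in resistant plants (called) and -0.11 ± 0.19 in susceptible plants (not called). Fructokinase-like 2 (TRINITY_DN2130_c0_g1_i12.p1), which in Arabidopsis belongs to the plastid transcription machinery, had 0.34 ± 0.24 in resistant plants (not called) and 0.68 ± 0.24 in susceptible plants (called), and its call was lost without any 1 of 9 libraries, and with no filter.

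Glucose-6-phosphate isomerase 1 (TRINITY_DN3937_c0_g1_i1.p1), a plastid enzyme that interconverts glucose and fructose phosphates, had 28.6, 29.04, 27.9 and 25.4 CPM in sprayed R1 and 26.5, 22.4, 25.5 and 21.7 CPM in sprayed R2 libraries, against 20.1, 19.2, 19.4 and 21.3 CPM in untreated R1 and 19.5, 23.5, 24.7 and 27.1 CPM in untreated R2 libraries. The R1 groups did not overlap and the R2 groups did. In susceptible plants it had 31.1, 24, 33.2 and 21.7 CPM in sprayed S1 and 24.9, 25.1, 25.7 and 29.3 CPM in sprayed S2 libraries, against 20.9, 21.01, 23.9 and 18.4 CPM in untreated S1 and 19.3, 20.1, 21.4 and 18.4 CPM in untreated S2 libraries, and there the S2 groups did not overlap. The log2 fold change was 0.25 ± 0.08 in resistant plants (not called) and 0.40 ± 0.08 in susceptible plants (called). Within R1 alone it was 0.47 ± 0.12, a call, and within R2 0.02 ± 0.12, without one.

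Phosphofructokinases commit fructose 6-phosphate to glycolysis, and in susceptible plants one member named so rose and the other fell. ATP-dependent 6-phosphofructokinase 6 (TRINITY_DN6801_c2_g1_i2.p2) had 1.44, 0.625, 1.17 and 1.04 CPM in sprayed S1 and 1.73, 0.878, 1.60 and 1.79 CPM in sprayed S2 libraries, against 0.636, 0.704, 0.570 and 0.748 CPM in untreated S1 and 0.684, 0.329, 0.606 and 0.600 CPM in untreated S2 libraries. The S2 groups did not overlap, the S1 groups did, and all levels were low. The change was 0.33 ± 0.23 in resistant plants (not called) and 1.05 ± 0.23 in susceptible plants (called). ATP-dependent 6-phosphofructokinase 7-like (TRINITY_DN16819_c0_g1_i18.p1) had -0.21 ± 0.13 in resistant plants (not called) and -0.38 ± 0.13 in susceptible plants (called), a call that was lost without S1 sprayed replicate 1, S2 sprayed replicate 2, S1 untreated replicate 3 or S2 untreated replicate 4.

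Aldolase splits fructose 1,6-bisphosphate into triose phosphates. The chloroplastic fructose-bisphosphate aldolase 1 (TRINITY_DN2220_c0_g1_i4.p1) had a log2 fold change of 0.05 ± 0.10 in resistant plants (not called) and 0.31 ± 0.10 in susceptible plants (called), lost without S2 sprayed replicate 3, S2 untreated replicate 3 or S2 untreated replicate 4. The cytoplasmic one (TRINITY_DN13481_c0_g1_i7.p3) had -0.27 ± 0.15 in resistant plants and 0.35 ± 0.15 in susceptible plants (neither called). Aldolase-lysine N-methyltransferase (TRINITY_DN14423_c0_g1_i51.p1) is not a step of glycolysis: it methylates chloroplast aldolase.

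This methyltransferase had 31.3, 35.7, 34.2 and 29.7 CPM in sprayed R1 and 34.5, 34.3, 35.8 and 32.8 CPM in sprayed R2 libraries, against 26.8, 32.2, 33.7 and 37 CPM in untreated R1 and 33.9, 30.8, 35.2 and 33.9 CPM in untreated R2 libraries, with overlap. In susceptible plants it had 27.8, 21.6, 20.1 and 24.3 CPM in sprayed S1 and 28.8, 29.2, 29.7 and 29.98 CPM in sprayed S2 libraries, against 34.3, 32.3, 33.9 and 35.5 CPM in untreated S1 and 37.2, 42.7, 32.8 and 32.1 CPM in untreated S2 libraries. There all sprayed libraries lay below all untreated ones. The log2 fold change was 0.03 ± 0.07 in resistant plants (not called) and -0.42 ± 0.07 in susceptible plants (called). It was the one member called for the difference of the responses, 0.44 ± 0.10 as resistant minus susceptible. That call was lost without any 1 of 18 libraries, under totals alone and with either block (replicate or population).

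That call was lost in 21 of 37 other settings, 18 of them the loss of 1 library. Under totals alone the difference was 0.15, while the median of all features shifted to -0.31, and 10 other members were called, all negative. DESeq2 called 7 members, this one and 6 more, among them the chloroplastic phosphoglycerate kinase and the pyruvate kinase cytosolic isozyme.

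Glyceraldehyde-3-phosphate dehydrogenases oxidise triose phosphate, and the B subunit belongs to the Calvin cycle of the chloroplast. Of 3 members none was called in resistant plants, and 2 fell in susceptible plants. NADP-dependent glyceraldehyde-3-phosphate dehydrogenase (TRINITY_DN885_c0_g1_i4.p1) had 53.3, 57.2, 73.9 and 67.6 CPM in sprayed S1 and 89.4, 84.2, 86.3 and 75.9 CPM in sprayed S2 libraries, against 98.9, 104, 104 and 112 CPM in untreated S1 and 107, 142, 109 and 109.8 CPM in untreated S2 libraries. Sprayed and untreated susceptible libraries did not overlap. The change was -0.27 ± 0.09 in resistant plants (not called) and -0.61 ± 0.09 in susceptible plants (called). Glyceraldehyde-3-phosphate dehydrogenase B (TRINITY_DN1939_c0_g1_i19.p1) had 0.04 ± 0.12 in resistant plants (not called) and -0.51 ± 0.12 in susceptible plants (called), and levels of 180 to 211 CPM in sprayed S1 and 260 to 404 CPM in untreated S1 libraries. The plastid glycolytic form GAPCP1 (TRINITY_DN1240_c1_g1_i12.p1) had -0.12 ± 0.19 in resistant plants and 0.22 ± 0.19 in susceptible plants (neither called).

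Phosphoglycerate kinase makes ATP in glycolysis and uses it in the Calvin cycle, and its cytosolic and chloroplastic forms moved in opposite directions in susceptible plants. The cytosolic form (TRINITY_DN1620_c0_g2_i4.p3) had 3.16, 4.53, 3.18 and 4.05 CPM in sprayed S1 and 3.20, 3.06, 5.63 and 3.69 CPM in sprayed S2 libraries, against 2.01, 2.05, 2.75 and 1.40 CPM in untreated S1 and 2.54, 1.68, 3.10 and 2.37 CPM in untreated S2 libraries. The S1 groups did not overlap, and the S2 groups overlapped slightly. The chloroplastic form (TRINITY_DN1620_c0_g1_i8.p2) had 291, 274, 296 and 227 CPM in sprayed S1 and 341, 290.5, 328 and 439.6 CPM in sprayed S2 libraries, against 393, 369, 401 and 443 CPM in untreated S1 and 434, 459, 406 and 404 CPM in untreated S2 libraries. Again the S1 groups were apart, and S2 sprayed replicate 4 lay among the untreated S2 libraries.

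The log2 fold change of the cytosolic kinase was 0.33 ± 0.20 in resistant plants (not called) and 0.77 ± 0.20 in susceptible plants (called), and that of the chloroplastic kinase was 0.02 ± 0.09 in resistant plants (not called) and -0.42 ± 0.09 in susceptible plants (called). Under totals alone the chloroplastic kinase had -0.12 in susceptible plants, without a call, and the cytosolic one 1.11, with one.

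**Figure D2:**
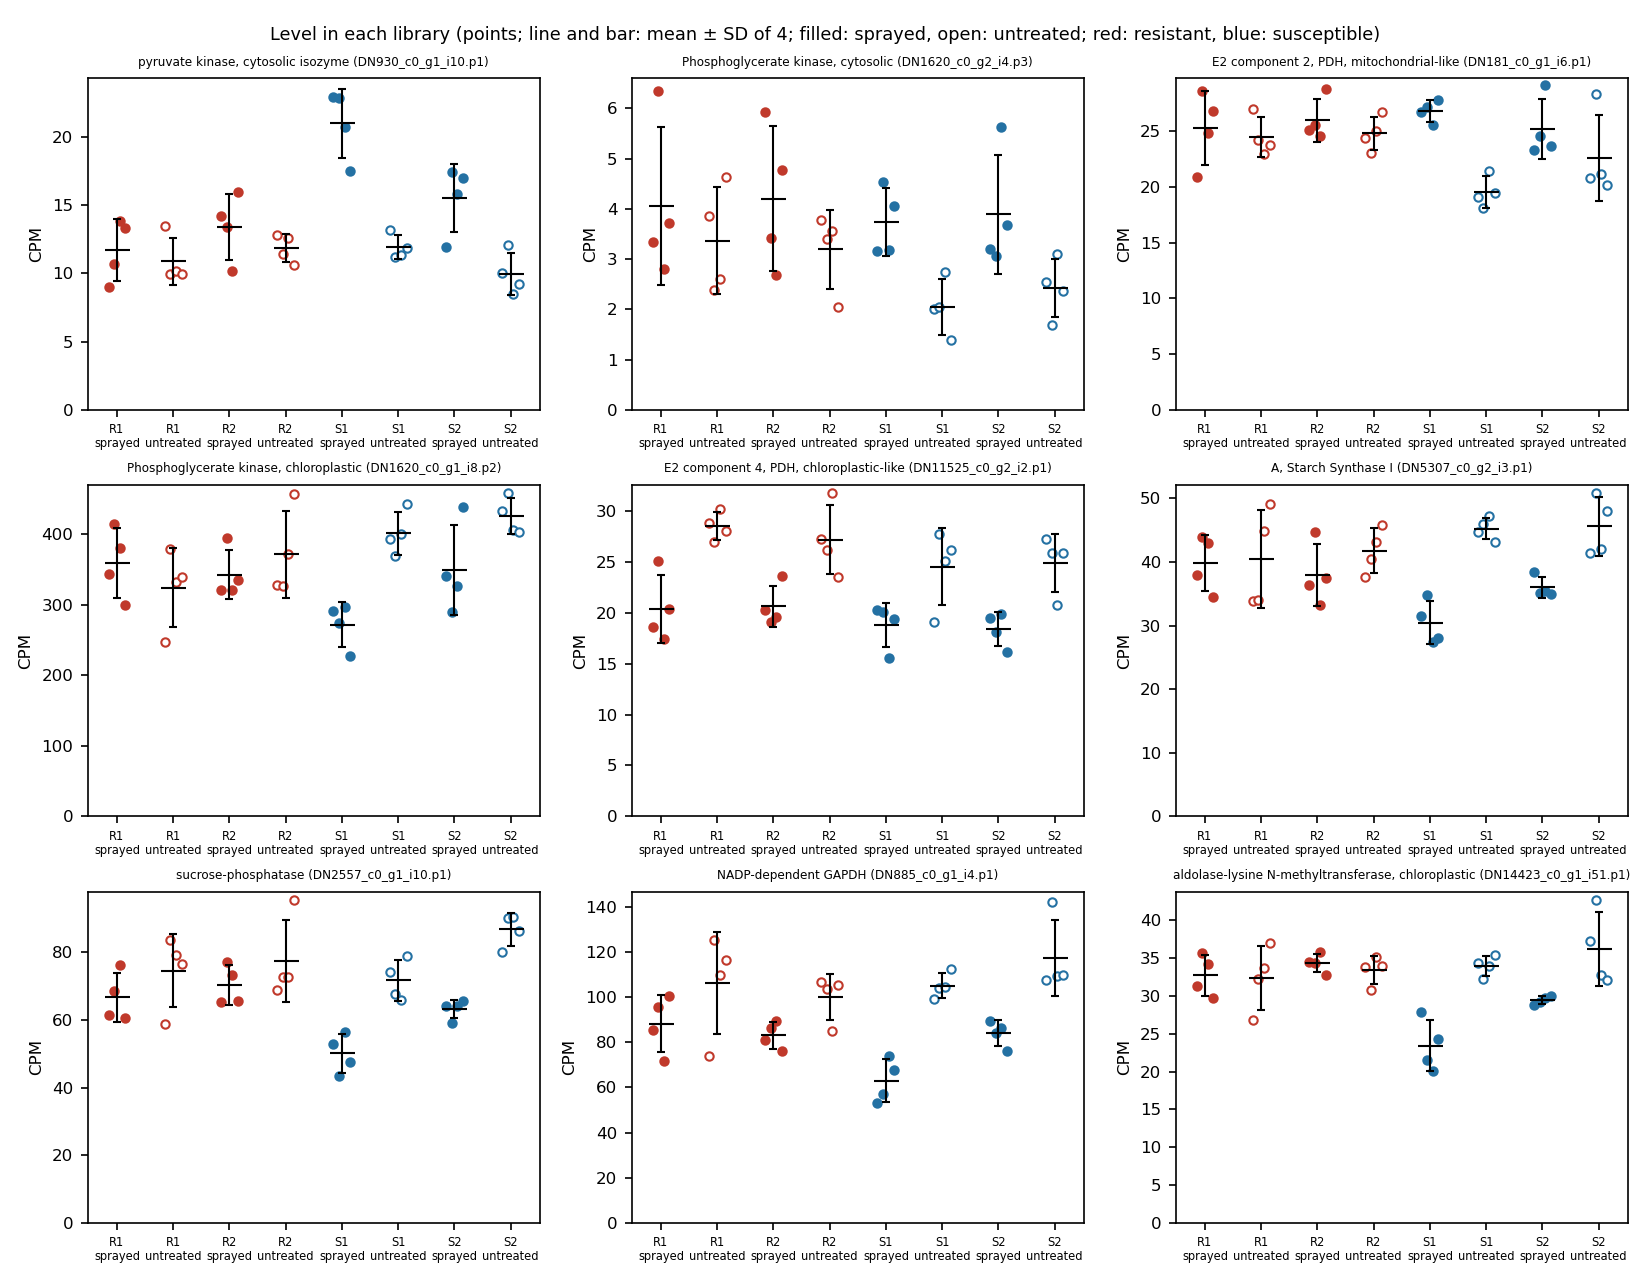
Level in CPM (y axis, from 0) of 9 features in each library, with the mean ± SD of 4 libraries as line and bar; red is resistant, blue susceptible, filled sprayed and open untreated. In the upper row, forms outside the plastid, the mean of sprayed S1 lies above that of untreated S1, and for the other 6 features it lies lower. Those 6 are not all named as plastid forms: sucrose-phosphatase, Starch Synthase I and NADP-dependent glyceraldehyde-3-phosphate dehydrogenase carry no compartment word.

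Phosphoglycerate mutase moves the phosphate of phosphoglycerate on the way to pyruvate. Both frames of the bisphosphoglycerate-independent mutase (TRINITY_DN3351_c0_g1_i1.p1 and TRINITY_DN3351_c0_g1_i1.p3) rose in susceptible plants. The first had 45.3, 51.04, 44.02 and 45.1 CPM in sprayed S1 and 36.7, 46.2, 52.3 and 39.2 CPM in sprayed S2 libraries, against 30.4, 29.3, 33.7 and 32.3 CPM in untreated S1 and 34.9, 38.01, 32.8 and 33.1 CPM in untreated S2 libraries. The S1 groups did not overlap, and the S2 groups overlapped through S2 sprayed replicate 1. Its change was -0.03 ± 0.09 in resistant plants (not called) and 0.45 ± 0.09 in susceptible plants (called), and that of the second frame -0.02 ± 0.10 in resistant plants (not called) and 0.35 ± 0.10 in susceptible plants (called). Phosphoglycerate mutase-like protein 4 (TRINITY_DN42470_c0_g1_i1.p1) had 0.30 ± 0.19 in resistant plants (not called) and 0.65 ± 0.19 in susceptible plants (called).

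Pyruvate kinase makes pyruvate and ATP, and both cytosolic members rose in susceptible plants. The cytosolic isozyme (TRINITY_DN930_c0_g1_i10.p1) had 9.03, 10.7, 13.9 and 13.3 CPM in sprayed R1 and 14.2, 13.4, 10.2 and 15.96 CPM in sprayed R2 libraries, against 13.5, 9.97, 10.2 and 9.93 CPM in untreated R1 and 12.8, 11.4, 12.6 and 10.6 CPM in untreated R2 libraries, with overlap. In susceptible plants it had 22.9, 22.8, 20.7 and 17.5 CPM in sprayed S1 and 11.97, 17.4, 15.8 and 16.99 CPM in sprayed S2 libraries, against 13.2, 11.2, 11.4 and 11.9 CPM in untreated S1 and 10.04, 12.1, 8.48 and 9.23 CPM in untreated S2 libraries. The S1 groups did not overlap, and S2 sprayed replicate 1 was the one sprayed susceptible library at an untreated level. Its change was 0.14 ± 0.11 in resistant plants (not called) and 0.73 ± 0.11 in susceptible plants (called).

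Pyruvate kinase 1, cytosolic (TRINITY_DN1119_c0_g1_i6.p1) had 0.20 ± 0.08 in resistant plants (not called) and 0.32 ± 0.08 in susceptible plants (called). The chloroplastic isozyme A (TRINITY_DN442_c0_g1_i6.p1) had -0.21 ± 0.10 in resistant plants and -0.05 ± 0.10 in susceptible plants (neither called), and the chloroplastic isozyme G (TRINITY_DN17374_c0_g1_i6.p1) had -0.07 ± 0.27 in resistant plants and 0.57 ± 0.27 in susceptible plants (neither called).

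The pyruvate dehydrogenase complex is built of a decarboxylase (E1), an acetyltransferase (E2) and a further dehydrogenase. Of its 5 members 1 fell in resistant plants, and in susceptible plants the 3 mitochondrial members rose and the 2 chloroplastic members fell. E2 component 4 (TRINITY_DN11525_c0_g2_i2.p1), described as chloroplastic-like, had 18.6, 25.04, 17.4 and 20.3 CPM in sprayed R1 and 20.3, 19.1, 19.6 and 23.6 CPM in sprayed R2 libraries, against 28.8, 26.9, 30.2 and 28.01 CPM in untreated R1 and 27.2, 26.2, 31.7 and 23.5 CPM in untreated R2 libraries. In susceptible plants it had 20.2, 20.1, 15.6 and 19.4 CPM in sprayed S1 and 19.5, 18.1, 19.9 and 16.2 CPM in sprayed S2 libraries, against 19.1, 27.8, 25.1 and 26.1 CPM in untreated S1 and 27.2, 25.8, 20.7 and 25.8 CPM in untreated S2 libraries. Most sprayed libraries lay below the untreated ones, without overlap in R1 and S2 and with overlap in R2 and S1. Its change was -0.44 ± 0.09 in resistant plants and -0.41 ± 0.09 in susceptible plants (both called), and within each population it lay between -0.48 and -0.38. Under totals alone it was -0.09 in susceptible plants, without a call.

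E2 component 2 (TRINITY_DN181_c0_g1_i6.p1), described as mitochondrial-like, had 26.7, 27.2, 25.5 and 27.7 CPM in sprayed S1 and 23.3, 24.5, 29.1 and 23.7 CPM in sprayed S2 libraries, against 19.04, 18.1, 21.4 and 19.5 CPM in untreated S1 and 20.8, 28.4, 21.2 and 20.2 CPM in untreated S2 libraries. The S1 groups did not overlap, and in S2 the untreated replicate 2 lay among the sprayed libraries. The fitted change was 0.06 ± 0.07 in resistant plants (not called) and 0.31 ± 0.07 in susceptible plants (called). The mitochondrial E2 component 1 (TRINITY_DN7596_c0_g1_i65.p1) had 0.04 ± 0.08 in resistant plants (not called) and 0.29 ± 0.08 in susceptible plants (called), and the mitochondrial E1 subunit alpha-1 (TRINITY_DN10851_c0_g1_i3.p4) had 0.07 ± 0.06 in resistant plants (not called) and 0.23 ± 0.06 in susceptible plants (called). The chloroplastic E1 subunit alpha-3 (TRINITY_DN887_c0_g1_i2.p1) had -0.21 ± 0.09 in resistant plants (not called) and -0.27 ± 0.09 in susceptible plants (called), but 0.04 in susceptible plants under totals alone, and its call was lost without any 1 of 7 libraries.

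The 2 remaining members were caught by the word phosphoglycerate: D-3-phosphoglycerate dehydrogenase diverts that intermediate into serine synthesis. Dehydrogenase 1 (TRINITY_DN4003_c0_g1_i7.p1) had 6.52, 14.8, 8.85 and 6.79 CPM in sprayed S1 and 2.01, 2.89, 3.32 and 1.93 CPM in sprayed S2 libraries, against 2.04, 1.76, 2.52 and 2.34 CPM in untreated S1 and 2.19, 1.90, 1.35 and 1.28 CPM in untreated S2 libraries. Sprayed S1 libraries stood above all untreated S1 libraries, while the S2 groups overlapped. Its change was 0.16 ± 0.35 in resistant plants (not called) and 1.35 ± 0.37 in susceptible plants (called); in susceptible plants this was 2.09 ± 0.52 in S1, a call, and 0.60 ± 0.52 in S2, without one. Dehydrogenase 3 (TRINITY_DN6259_c0_g1_i8.p1) had -0.28 ± 0.16 in resistant plants and -0.21 ± 0.16 in susceptible plants (neither called).

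The compartment named in a description was not part of the rule, though descriptions exist only for listed features. Of the 4 members described as cytosolic or cytoplasmic, 3 rose and none fell in susceptible plants. Of the 4 described as mitochondrial, 3 rose and 1, neutral/alkaline invertase 1, fell. Of the 20 described as chloroplastic, 4 rose and 9 fell. The 4 that rose were aldolase 1, glucose-6-phosphate isomerase 1, fructokinase-like 2 and D-3-phosphoglycerate dehydrogenase 1. Under totals alone alpha-amylase 3 was the only chloroplastic member still called lower, so the count of falls depends on the scaling. Median log2 fold changes in susceptible plants were 0.54 for cytosolic, 0.26 for mitochondrial and -0.22 for chloroplastic members. They stand beside the lower median of the photosynthesis list in sprayed libraries of each population, given above. The largest set, 21 members, carries no compartment word. Of these 6 rose and 10 fell in susceptible plants, with a median of -0.20. Sucrose-phosphatase and NADP-dependent glyceraldehyde-3-phosphate dehydrogenase are among those that fell, so the split by compartment covers only members whose description names one.

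The ratio of the counts of both forms within a library needs no scaling. It depends on the length of both features, so only its change between groups is read. All forms are members, chosen through the authors' comparisons, so the ratios describe them and support nothing. The counts of both mitochondrial acetyltransferases over the chloroplastic one gave a ratio of 1.62 ± 0.206 in sprayed and 1.10 ± 0.0943 in untreated R1 libraries (SD, n = 4, as for all ratios here). In R2 it was 1.60 ± 0.0711 sprayed and 1.19 ± 0.189 untreated. In S1 it was 1.83 ± 0.209 sprayed and 1.05 ± 0.214 untreated, and in S2 1.78 ± 0.133 sprayed and 1.17 ± 0.179 untreated. Sprayed and untreated libraries did not overlap in any of the 4 populations. The authors had listed the chloroplastic form as lower in both spray responses, and both mitochondrial forms as higher in that of susceptible plants. A shift of this ratio with spraying was therefore built into the choice of members. How often ratios of other features separate in this way was not counted.

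For phosphoglycerate kinase, the ratio of cytosolic to chloroplastic counts was 0.0112 ± 0.00342 in sprayed and 0.0108 ± 0.00449 in untreated R1 libraries. In R2 it was 0.0124 ± 0.00485 sprayed and 0.00897 ± 0.00310 untreated, and sprayed and untreated libraries overlapped in both resistant populations. In S1 it was 0.0140 ± 0.00372 sprayed and 0.00517 ± 0.00154 untreated, and in S2 0.0114 ± 0.00397 sprayed and 0.00576 ± 0.00162 untreated, with no overlap in either.

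The ratio of mitochondrial to chloroplastic E1 alpha counts did not overlap between sprayed and untreated libraries in R1 and S1, and it did in R2 and S2. For pyruvate kinase, sprayed and untreated libraries overlapped in each of the 4 populations. For aldolase 1 they overlapped in S1, S2 and R2, and in R1 the sprayed libraries lay below the untreated ones, with 2.51 ± 0.304 sprayed and 3.62 ± 0.645 untreated. In S1 the pyruvate kinase ratio was 2.98 ± 1.07 sprayed and 2.45 ± 0.440 untreated, and the aldolase ratio was 2.47 ± 0.491 sprayed and 2.42 ± 0.349 untreated.

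**Figure D3:**
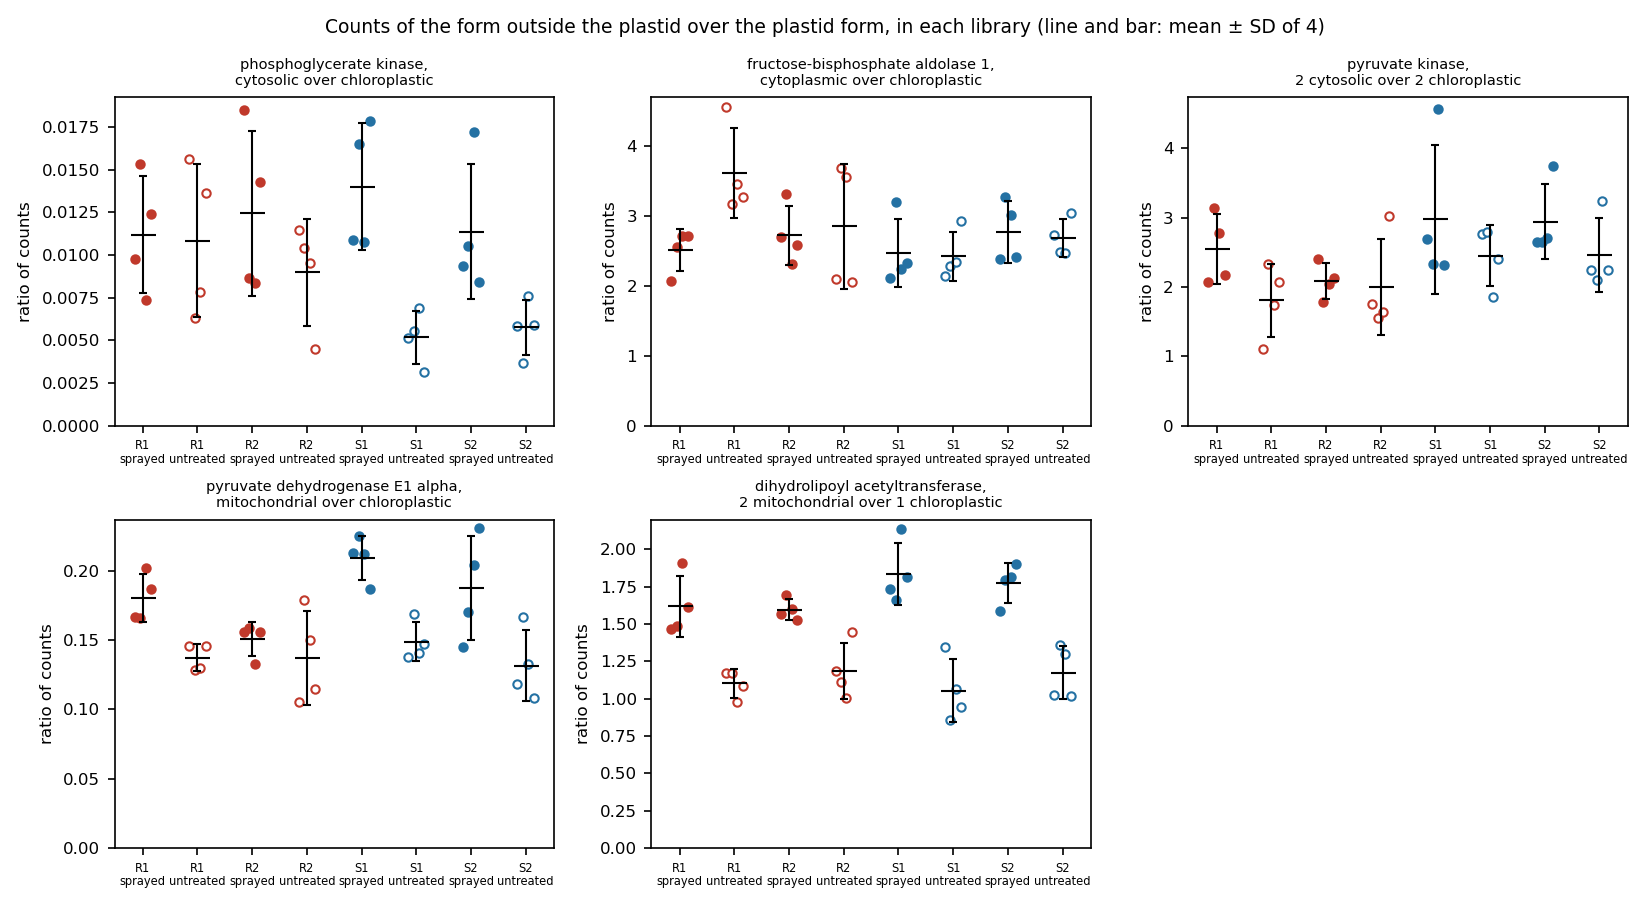
Ratio of the counts of the form outside the plastid to those of the plastid form (y axis, no unit, from 0) in each library for 5 enzyme pairs, with mean ± SD of 4 libraries; red is resistant, blue susceptible, filled sprayed and open untreated. The acetyltransferase ratio is higher in sprayed than in untreated libraries of each of the 4 populations. The authors had listed its forms as changed by spraying, so this describes the members.

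Population by population, S1 carried most of the calls. R1 had 4 called members, beside 5.69% of all features and 17% of the other described ones. R2 had 0, beside 1.64% and 5.28%: edgeR's test gave 3 members with an unadjusted p under 0.05 there, and DESeq2 was not run on single populations. In S1 alone 24 of the 49 were called, beside 20% of all features and 58.2% of the other described ones, and in S2 alone 7, beside 7.21% and 22.9%. Over all 4 populations with equal weight, 35 members were called, beside 27.6% of all features and 75.4% of the other described ones. Whether S1 and S2 responded differently is tested further on.

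Before spraying, members were called between resistant and susceptible plants at a share near that of the other described features. Of the 49, 7 (14.3%) were called, 5 higher and 2 lower in resistant plants. Among all features 4.12% were called, 2.76% higher and 1.36% lower, and 12.8% of the other described ones were. The median log2 fold change of the members was 0.08, against 0.00 over all features. Trehalose-phosphate phosphatase had 4.89, 5.66, 6.24 and 5.58 CPM in untreated R1 and 6.85, 6.37, 6.61 and 6.68 CPM in untreated R2 libraries, against 10.1, 8.76, 7.68 and 7.43 CPM in untreated S1 and 7.96, 9.04, 8.75 and 9.59 CPM in untreated S2 libraries. All 8 untreated resistant libraries lay below all 8 untreated susceptible ones. The authors had listed this member in this comparison, so the separation describes it, and how many of all features separate in this way was not counted.

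When sprayed, this phosphatase had 7.05, 7.94, 5.87 and 6.14 CPM in sprayed R1 and 7.40, 5.87, 4.61 and 5.15 CPM in sprayed R2 libraries, against 9.43, 8.88, 9.77 and 7.53 CPM in sprayed S1 and 9.83, 7.82, 5.57 and 9.34 CPM in sprayed S2 libraries, and the groups overlapped. Its log2 fold change of resistant over susceptible plants was -0.45 ± 0.11 in sprayed plants and -0.51 ± 0.11 in untreated plants (both called). The call in sprayed plants was lost without S2 sprayed replicate 1, S2 sprayed replicate 4, R1 sprayed replicate 3 or R2 sprayed replicate 3, and with population as a random block.

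Both frames of the bisphosphoglycerate-independent mutase were higher in untreated resistant plants. The first had 65.2, 33.9, 46.3 and 50.1 CPM in untreated R1 and 35.4, 42.4, 46.2 and 45.4 CPM in untreated R2 libraries, against 30.4, 29.3, 33.7 and 32.3 CPM in untreated S1 and 34.9, 38.01, 32.8 and 33.1 CPM in untreated S2 libraries. The groups overlapped through R1 untreated replicate 2 and R2 untreated replicate 1. Its change was -0.01 ± 0.09 in sprayed plants (not called) and 0.46 ± 0.09 in untreated plants (called). The second frame had 0.38 ± 0.10 in untreated plants, a call lost without S1 untreated replicate 1, S1 untreated replicate 2, S2 untreated replicate 3, R1 untreated replicate 1 or R2 untreated replicate 3, and with population as a random block.

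Cytoplasmic aldolase 1 had 77.2, 35.1, 50.4 and 48.1 CPM in untreated R1 and 33.9, 43.5, 51.3 and 25.3 CPM in untreated R2 libraries, against 28.6, 27.03, 34.4 and 35.7 CPM in untreated S1 and 31.3, 30.1, 22.9 and 26.1 CPM in untreated S2 libraries. Levels were spread widely within R1 and R2, and the classes overlapped. The change was -0.01 ± 0.15 in sprayed plants (not called) and 0.61 ± 0.15 in untreated plants (called), and the call ended without R1 untreated replicate 1 or R2 untreated replicate 3. D-3-phosphoglycerate dehydrogenase 1 had 17.6, 2.54, 4.45 and 2.88 CPM in untreated R1 and 2.70, 6.12, 5.10 and 2.38 CPM in untreated R2 libraries, against 2.04, 1.76, 2.52 and 2.34 CPM in untreated S1 and 2.19, 1.90, 1.35 and 1.28 CPM in untreated S2 libraries. R1 untreated replicate 1 held by far the highest value. The change was 1.48 ± 0.36, and the call ended without S1 untreated replicate 1, S2 untreated replicate 3, R1 untreated replicate 1, R2 untreated replicate 2 or R2 untreated replicate 3. Both calls were also lost with population as a random block.

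Pyruvate kinase isozyme A, chloroplastic, was higher by 0.35 ± 0.10 in untreated resistant plants, and granule-bound starch synthase 1b was lower, with -0.74 ± 0.21. The first call was lost without any 1 of 10 libraries, and the second without any 1 of 12 libraries. Both were also lost with the replicate block and with population as a random block, the first with no filter too and the second under totals alone. The first mutase frame and trehalose-phosphate phosphatase were the 2 of the 7 members still called with population as a random block. The count of 7 members fell to 2 without R1 untreated replicate 1 or R2 untreated replicate 3. It was 3 without S1 untreated replicate 1, and 4 without S1 untreated replicate 2, S2 untreated replicate 3 or R2 untreated replicate 2. Under totals alone 21 members were called, 20 higher and 1 lower, while the median of all features shifted to 0.21. DESeq2 called 14, of which 10 were higher.

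In sprayed plants 3 members were called between the classes, 1 higher and 2 lower in resistant plants, beside 2.3% of all features, 1.55% higher and 0.751% lower, and 7.02% of the other described ones. Totals alone gave 2 calls, both lower, and DESeq2 gave 4, 2 of them higher. The pyruvate kinase cytosolic isozyme had 9.03, 10.7, 13.9 and 13.3 CPM in sprayed R1 and 14.2, 13.4, 10.2 and 15.96 CPM in sprayed R2 libraries, against 22.9, 22.8, 20.7 and 17.5 CPM in sprayed S1 and 11.97, 17.4, 15.8 and 16.99 CPM in sprayed S2 libraries. Sprayed S1 lay above every other group, and sprayed S2 overlapped the resistant libraries. Its change was -0.53 ± 0.11 in sprayed plants (called) and 0.06 ± 0.11 in untreated plants (not called).

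Aldolase-lysine N-methyltransferase had a log2 fold change of resistant over susceptible plants of 0.35 ± 0.07 in sprayed plants (called) and -0.09 ± 0.07 in untreated plants (not called). The sprayed classes overlapped narrowly, at 29.7 to 35.8 CPM in resistant and 20.1 to 30.0 CPM in susceptible libraries, and the call was lost under totals alone. The third was trehalose-phosphate phosphatase, described above. The count of 3 became 5 without R1 sprayed replicate 4.

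**Figure D4:**
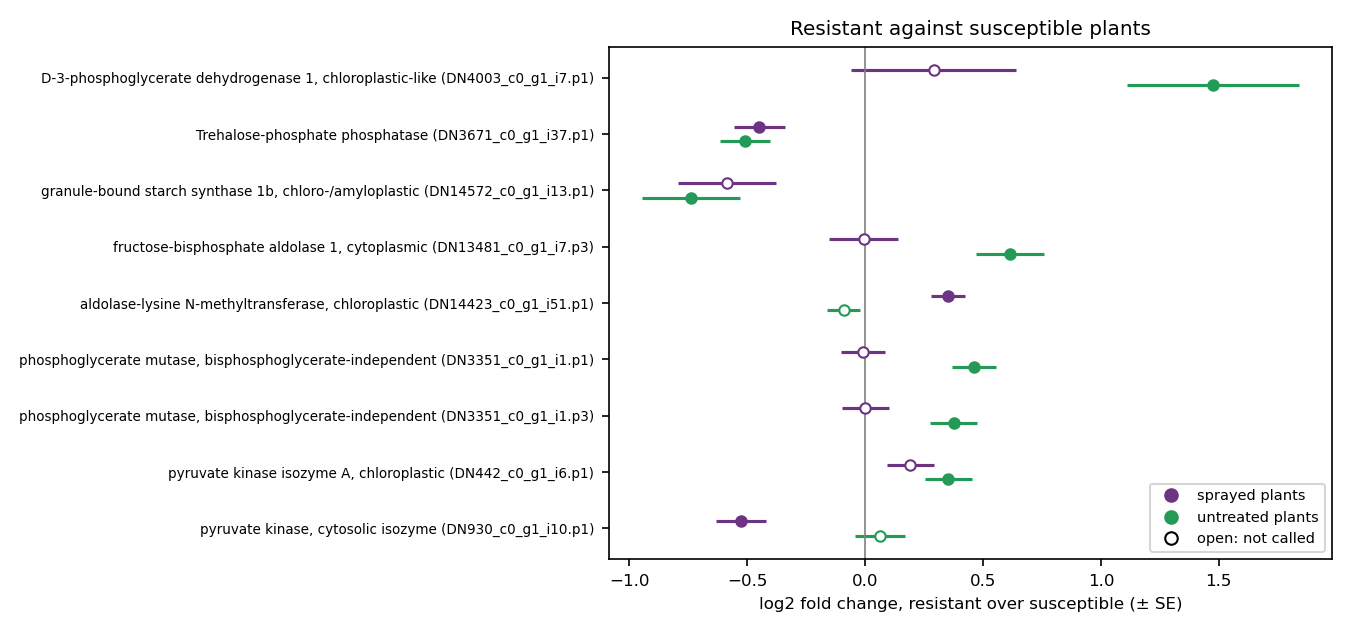
Log2 fold change of resistant over susceptible plants (x axis, ± SE of the fit) for the 9 members called in either condition, in sprayed (purple) and untreated plants (green); filled points were called. Trehalose-phosphate phosphatase is the one with filled points in both conditions.

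The comparisons between populations of 1 class took no part in choosing the members, so they can be tested. Described features were still called more often than all features in most of them, so both shares are given. No member was called by edgeR in any of the 6, beside the following shares called. For S2 against S1 these were 1.34% of all features and 3.6% of the other described ones in sprayed plants, and 0.00799% and 0.0262% in untreated plants. For R2 against R1 they were 0.407% and 1.01% in sprayed plants, and 0.0399% and 0.0654% in untreated plants. For the difference of the spray responses they were 0.028% and 0.0915% for S2 minus S1, and 0.00399% and 0% for R2 minus R1. At the looser limit of an unadjusted p under 0.05, edgeR gave 10 members for S2 against S1 sprayed and 2 untreated. It gave 1 for R2 against R1 sprayed and 3 untreated, and 2 for each difference of the responses. The share of all features at that limit was not counted, so these member counts have no background here. DESeq2 called 2 members for S2 against S1 in sprayed plants and none in the other 5 comparisons.

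The smallest adjusted p in these 6 comparisons was 0.0668, from edgeR's quasi-likelihood test, for D-3-phosphoglycerate dehydrogenase 1 in sprayed S2 against sprayed S1. It had 2.01, 2.89, 3.32 and 1.93 CPM in sprayed S2 and 6.52, 14.8, 8.85 and 6.79 CPM in sprayed S1 libraries. The groups did not overlap, and the log2 fold change of S2 over S1 was -1.86 ± 0.51. It was called by DESeq2, with an adjusted p of 0.00718, and by edgeR without R1 untreated replicate 1, with an adjusted p of 0.0113, and under no other alternative run.

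Aldolase-lysine N-methyltransferase had 28.8, 29.2, 29.7 and 29.98 CPM in sprayed S2 and 27.8, 21.6, 20.1 and 24.3 CPM in sprayed S1 libraries, without overlap. The log2 fold change of S2 over S1 was 0.33 ± 0.10, with an edgeR adjusted p of 0.109 and a DESeq2 adjusted p of 0.0451. NADP-dependent glyceraldehyde-3-phosphate dehydrogenase had 0.41 ± 0.13, with an edgeR adjusted p of 0.126, and 0.0457 without R1 untreated replicate 1. The pyruvate kinase cytosolic isozyme had -0.43 ± 0.15, with an edgeR adjusted p of 0.157.

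Other described features of sugar metabolism were counted from word lists outside the members. They too carry descriptions because the authors listed them. Among all described features other than the members, 79.2% were called in susceptible plants, 42.6% higher and 36.6% lower. In resistant plants 29.2% were called, 18.2% higher and 11.1% lower. Over all features tested the shares were 25.4% in susceptible and 9.14% in resistant plants. The counts of the lists stand beside these shares and were not tested against them. Of 21 sugar carriers, 1 was higher and 2 lower in sprayed resistant plants, and 11 were higher and 6 lower in sprayed susceptible plants. Glucose-6-phosphate/phosphate translocator 2 (TRINITY_DN5003_c0_g1_i23.p1), which moves glucose phosphate into plastids, rose in both classes, by 0.98 ± 0.26 in resistant and 1.18 ± 0.26 in susceptible plants. A bidirectional sugar transporter (TRINITY_DN2726_c0_g2_i10.p1) and sucrose transporter 2A (TRINITY_DN600_c0_g1_i3.p1) were those that fell in resistant plants, with -0.82 ± 0.23 and -0.31 ± 0.10. Sugar transport protein 5-like (TRINITY_DN10760_c0_g1_i2.p1) rose in susceptible plants by 2.04 ± 0.37. Sugar transporter ERD6-like 16 (TRINITY_DN405_c0_g1_i96.p1) fell there, with -0.64 ± 0.07, and its difference of responses, resistant minus susceptible, was 0.47 ± 0.10, a call.

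Of 13 other starch and glucan enzymes, none rose and 2 fell in resistant plants, and 1 rose and 11 fell in susceptible plants. Both that fell in resistant plants were frames of 4-alpha-glucanotransferase DPE2 on 1 contig (TRINITY_DN3952_c0_g1_i3.p1 and TRINITY_DN3952_c0_g1_i3.p2), the enzyme that takes up the maltose of starch breakdown in the cytosol, with -0.28 ± 0.08 and -0.34 ± 0.10. The small subunit of glucose-1-phosphate adenylyltransferase (TRINITY_DN457_c0_g1_i11.p1), the enzyme that makes the sugar nucleotide for starch, had 0.05 ± 0.06 in resistant plants (not called) and -0.44 ± 0.06 in susceptible plants (called). Its difference of responses, 0.50 ± 0.08, was also called. Alpha-glucan water dikinase (TRINITY_DN1007_c0_g1_i4.p1), which phosphorylates starch before its breakdown, fell in susceptible plants, with -0.35 ± 0.08. The one that rose was 1,4-alpha-glucan-branching enzyme 3 (TRINITY_DN77434_c0_g1_i20.p1), by 0.91 ± 0.25. Before spraying, 5 of these 13 were lower in resistant than in susceptible plants and none higher: the adenylyltransferase small subunit, the water dikinase, both glucan phosphorylase isozymes (H and L) and pullulanase 1, with changes from -0.41 to -0.21. In that comparison 1.36% of all features and 4.12% of the other described ones were called lower. It is one of those through which features came to be described, so the count supports nothing.

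Of 12 other glycolysis and gluconeogenesis features, none was called in resistant plants, and 3 rose and 7 fell in susceptible ones. The 7 include alpha-glucan water dikinase, a starch enzyme already counted above, whose name shares a word with this list. Enolase 2 (TRINITY_DN1027_c0_g1_i27.p1), the step after phosphoglycerate mutase, rose there by 0.34 ± 0.10. The chloroplastic fructose-1,6-bisphosphatase (TRINITY_DN19230_c0_g1_i3.p2) and triosephosphate isomerase (TRINITY_DN4510_c0_g1_i9.p1) fell, with -0.53 ± 0.09 and -0.39 ± 0.10. The housekeeping isozyme of phosphoenolpyruvate carboxylase (TRINITY_DN27455_c0_g2_i1.p1), which fixes bicarbonate onto phosphoenolpyruvate, was higher in the mean of R1 and R2, by 1.91 ± 0.38 sprayed and 2.32 ± 0.36 untreated. Within this list the largest log2 fold change of R2 over R1 was 5.37 in sprayed and 4.42 in untreated plants, with 1 feature called higher in each. A class mean therefore need not hold for both resistant populations.

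Of 9 pentose phosphate and Calvin cycle enzymes, none was called in resistant plants, and 1 rose and 8 fell in susceptible plants, with phosphoribulokinase and sedoheptulose-1,7-bisphosphatase each counted as 2 frames of 1 contig. Phosphoribulokinase (TRINITY_DN1093_c0_g1_i5.p3), which makes the acceptor of carbon dioxide, had -0.54 ± 0.09 there, and 6-phosphogluconate dehydrogenase 2 (TRINITY_DN4304_c0_g3_i4.p1) was the one that rose, by 0.42 ± 0.13. Of 11 UDP-sugar, fructan and raffinose enzymes, none was called in resistant plants, and 1 rose and 8 fell in susceptible plants. When sprayed, 4 of these 11 were higher in resistant than in susceptible plants: a fructan exohydrolase, which breaks fructans down, by 0.55 ± 0.13, 2 fructosyltransferases, by 0.48 ± 0.09 and 0.42 ± 0.09, and a UTP–glucose-1-phosphate uridylyltransferase, by 0.32 ± 0.07. In that comparison 1.55% of all features and 4.82% of the other described ones were called higher, and it too led to descriptions.

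Of 9 tested features matched by the fermentation words, 1 rose in resistant plants, and 5 rose and 3 fell in susceptible plants, but 4 of the 9, the one that rose in resistant plants included, are cinnamyl alcohol dehydrogenases, which serve lignin synthesis. Among 3 sugar-sensing kinase features, an SNF1-type kinase (TRINITY_DN12961_c0_g1_i1.p1) fell in resistant plants, with -0.71 ± 0.17. In susceptible plants the SnRK1 alpha subunit (TRINITY_DN19966_c0_g1_i15.p1), part of a kinase active when sugar is short, fell, with -0.35 ± 0.08, and a regulatory gamma subunit (TRINITY_DN3903_c0_g1_i17.p2) rose, by 0.31 ± 0.10.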

How the data were processed

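RNA of 32 leaf libraries was sequenced from stranded, ribosomal RNA-depleted libraries, per the labels' protocols. The submitters' processing notes name R 3.6.1, DESeq2 1.24.0, STAR 2.5.2b and, as a further tool, FastQC 0.11.5, and their settings and the assembly are not given in the sources used here. The authors deposited raw counts per feature. They also deposited a table of log2 fold changes and adjusted p-values for 4 comparisons, with descriptions, only for features below 0.05.

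Counts were analysed with edgeR 4.0.16 (R 4.3.3): filterByExpr by the 8 groups left 25036 of 39590 features, and 3818 of the 39590 had no count at all. TMM factors, 0.82 to 1.26, scaled the libraries, and CPM values use them. A robust quasi-likelihood model with 8 group means was fitted to all 32 libraries. Contrasts weight the populations of a class equally, and Benjamini-Hochberg adjustment covered all 25036 features. Called means an adjusted p under 0.05. Fold changes are log2 values ± SE. The fit was tested on simulated data.

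The groups come from sample titles and labels. The members, lists and tests were chosen with earlier results of these data known. Named by rule were 22 members: for the mean response of each role, the highest-ranked called member by p that rose and the one that fell, and up to 3 such members each way for a class or population contrast, with 1 frame per assembled gene. The others were named to account for all 49, and other pathway genes as examples, after their values were seen. Alternatives were DESeq2 1.42.0, totals alone, no filter, a replicate block, population as a random block (limma 3.58.1, voom) and each library left out. Libraries of a group differed by 4.71 to 11.2 times the sampling noise, so none was a duplicate. No genome or sequence was used here, so features have no position and levels were not compared between features.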

Additional observations from a re-analysis of the deposited data

Results flagged for a closer look

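Among the 22 members named by rule, 176 groups of 4 libraries were checked for a library that stands apart from the other 3, by Dixon's ratio at the 95% level, and 11 were found. At this level chance alone gives about 1 in 20 groups.

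R1 untreated replicate 1 stood apart in 2 members. It had 17.6 CPM of D-3-phosphoglycerate dehydrogenase 1, against 2.54 to 4.45 CPM in the other 3 libraries of its group. It also had 13.5 CPM of the pyruvate kinase cytosolic isozyme, against 9.93 to 10.2 CPM. Without this library 2 members were called between untreated resistant and susceptible plants, in place of 7.

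S2 untreated replicate 2 was high in 2 members, at 142 CPM of NADP-dependent glyceraldehyde-3-phosphate dehydrogenase, against 107 to 109.8 CPM in the others, and at 28.4 CPM of pyruvate dehydrogenase E2 component 2, against 20.2 to 21.2 CPM. R2 untreated replicate 3 was low in the same glyceraldehyde-3-phosphate dehydrogenase, at 84.8 CPM against 104 to 107 CPM. Granule-bound starch synthase 1b had 4.85 CPM in R2 untreated replicate 1, against 2.90 to 2.92 CPM. Sucrose-phosphatase had 95.3 CPM in R2 untreated replicate 4, against 68.9 to 72.7 CPM.

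Among sprayed libraries, glucose-6-phosphate isomerase 1 had 29.3 CPM in S2 sprayed replicate 4, against 24.9 to 25.7 CPM. Starch Synthase I had 38.4 CPM in S2 sprayed replicate 1, against 35.0 to 35.5 CPM. Trehalose-phosphate synthase 1 had 30.4 CPM in S1 sprayed replicate 3, against 24.2 to 24.8 CPM. Probable sucrose-phosphatase 3 had 0.397 CPM in S2 sprayed replicate 2, against 0.203 to 0.207 CPM.

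A test of the difference itself called 1 member between the responses of the 2 classes, beside 0.563% of all features and 1.83% of the other described ones. For aldolase-lysine N-methyltransferase the response of resistant plants exceeded that of susceptible plants by 0.44 on the log2 scale, with an edgeR adjusted p of 0.039. The call was lost in 21 of 37 other settings, 18 of them the loss of 1 library. The authors' comparisons that chose the members include both responses, so this difference describes the member.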

How the results depend on the processing

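The counts of called members kept within 1.5 times of the value reported under every alternative run, except as follows. In the susceptible response, scaling by totals alone gave 23 calls in place of 36. Between untreated classes, DESeq2 gave 14, totals alone 21 and population as a random block 2, in place of 7. For the difference of the responses, DESeq2 gave 7, totals alone 10, and both the replicate block and the population block 0, in place of 1. DESeq2 gave 2 for sprayed S2 against S1, in place of 0: D-3-phosphoglycerate dehydrogenase 1 and aldolase-lysine N-methyltransferase. The cause was not tested, beyond the shift of the median of all features under totals alone. With 1 library left out at a time, the counts ranged from 30 to 37 for the susceptible response, 4 to 7 for the resistant response, 2 to 10 between untreated classes, 2 to 5 between sprayed classes, 0 to 3 for the difference of the responses and 0 to 2 for sprayed S2 against S1, where leaving out R1 untreated replicate 1 gave 2. The other 5 comparisons within a class stayed at 0. Leaving out any 1 of 24 libraries moved the count for the difference of the responses.

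Of the 36 members called in the susceptible response, 16 were called under each of 37 alternatives, and 2 of the 6 in the resistant response, 2 of the 7 between untreated classes and 1 of the 3 between sprayed classes were. Under totals alone 3 of the 36 turned above 0, to between 0.04 and 0.11.

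Libraries of the same replicate number in different groups did not deviate together: the mean correlation over 112 pairs was -0.0063, between -0.107 and 0.112, and 5 libraries correlated best with their own number. The replicate block gave 36 calls in the susceptible response, 6 in the resistant response, 5 between untreated classes and 3 between sprayed classes. Fewest counts lay behind probable sucrose-phosphatase 3, which had at most 0.565 CPM in a library and an SE of 0.36 in resistant plants.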
